A study of Mus musculus with 36 samples.

Results

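The genes described here encode the machinery that enters, builds and completes mitosis: the spindle, the kinetochore that ties chromosomes to it, and condensin, which compacts the chromosomes. They were chosen as a list of 51 mouse genes by symbol, and all 51 were found in each of the 3 deposited expression tables, which hold 25760 genes for wild-type cells, 26863 for β-catenin removal and 26472 for Tcf/Lef removal. By role, 8 are mitotic entry kinases, cyclins and phosphatases, 4 form the chromosomal passenger complex, 9 belong to the spindle checkpoint, the anaphase-promoting complex and cohesin release, 10 to the centromere and kinetochore, 7 to condensin and the mitotic chromosome, 6 are spindle motors and microtubule proteins, and 7 act at the midzone and in cytokinesis. Every member had a mean of at least 10 normalized counts in each table, so none was lost to the filter on low values.

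Cyclin-dependent kinase 1 with its B-type cyclins drives a cell into mitosis, Aurora and Polo-like kinases organise the spindle, and the checkpoint holds the anaphase-promoting complex inactive until every kinetochore is attached. Most of these transcripts accumulate late in the cell cycle and decline after division, so in a bulk RNA sample their level follows both the share of cells near mitosis and the amount of transcript in each such cell. Nephron progenitor cells (NPCs), the Six2-expressing mesenchyme that forms nephrons, divide to renew themselves and receive Wnt signals through β-catenin, which joins Tcf/Lef DNA-binding proteins to activate targets.

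The study asked how NPC programs depend on the dose of canonical Wnt signaling and on β-catenin and Tcf/Lef factors. Primary NPCs were taken from kidneys of mouse embryos at embryonic day 16.5, enriched by magnetic depletion of other cells, and grown in the nephron progenitor expansion medium NPEM with CHIR, a GSK3 inhibitor that stabilises β-catenin. RNA was sequenced in bulk from 36 libraries. Wild-type NPCs received no CHIR (0 µM), low CHIR (1.25 µM, the dose used to expand NPCs) or high CHIR (5 µM, the differentiating dose) for 24 h, with 3 libraries a dose.

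In the second table, β-catenin was removed in 2 ways, with 2 libraries a group. Cre mRNA was transfected into NPCs homozygous for a conditional Ctnnb1 allele (genotype B-catenin_c_c), and the controls were cells of this genotype without Cre. In the other arm, guide RNAs (sgRNAs) against Ctnnb1 were transfected into NPCs that express Cas9-eGFP constitutively, and the controls of this genotype received GFP sgRNA. Both arms had 24 h of removal in low CHIR and then 24 h in low or high CHIR. In the third table, Cas9-eGFP NPCs received sgRNAs to Tcf7l1, Tcf7l2, Tcf7 and Lef1 (QKO) or GFP sgRNA with 48 h for removal, again at low or high CHIR, with 3 libraries a group except 2 for QKO at low CHIR. All transfected cells also received mCherry mRNA and were sorted for mCherry, so a library holds cells that took up RNA and can mix edited with unedited alleles. The 2 removal arms differ in genotype as well as in the agent.

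Promoter sequences are shown for 9 members, because they hold the letters that many late cell cycle promoters share: the CHR element (TTTGAA and its variant form TTCGAA) and the CCAAT box. In RefSeq promoter windows of GRCm38 (250 bases before to 50 after each gene's start), 41 of the 51 members had a window, and 32 of those 41 (78.0%) held a CHR element on either strand, against 21.7% of all 27025 genes with a window. A CCAAT box was found in 30 members (73.2%, against 41.1% of all genes) and both in 27 (65.9%, against 8.61%). The E2F letters (TTTCGCG, the form with TTTGGCG and the form with TTTCCCG) were found in 6 members (14.6%, against 6.38%), and in 52.4% of the DNA replication genes described later, 22 of 42 with a window. The Tcf/Lef letters CTTTGAT were found in 1 member (2.44%, against 4.29%), a search added after the other motifs had been counted. The letters TTTGAA also lie inside CTTTGAA, a form close to the Tcf/Lef letters, as in the Cdk1 stretch below. That form was not searched as a Tcf/Lef site, so its matches are counted under CHR only. Each stretch below runs from 80 bases before to 30 after the start, 5′ to 3′ on the gene's strand, with CHR elements and CCAAT boxes in capitals on either strand (TTCAAA is the reverse complement of the former, ATTGG that of the latter).
Cdk1: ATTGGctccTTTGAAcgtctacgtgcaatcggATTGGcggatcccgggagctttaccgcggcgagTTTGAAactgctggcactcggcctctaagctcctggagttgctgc
Ccnb2: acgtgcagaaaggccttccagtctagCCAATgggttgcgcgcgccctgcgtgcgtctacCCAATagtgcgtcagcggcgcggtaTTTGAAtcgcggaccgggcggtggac
Ttk: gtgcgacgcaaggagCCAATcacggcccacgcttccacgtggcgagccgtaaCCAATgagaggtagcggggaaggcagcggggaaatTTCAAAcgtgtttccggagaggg
Spc25: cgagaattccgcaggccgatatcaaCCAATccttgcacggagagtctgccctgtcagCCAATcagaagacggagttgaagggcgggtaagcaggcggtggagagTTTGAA
Ska3: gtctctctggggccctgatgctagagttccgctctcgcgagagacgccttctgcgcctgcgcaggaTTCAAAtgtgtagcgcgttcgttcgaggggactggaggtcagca
Kif4: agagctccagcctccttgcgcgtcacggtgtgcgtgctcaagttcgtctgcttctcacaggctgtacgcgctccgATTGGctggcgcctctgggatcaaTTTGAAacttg
Ect2: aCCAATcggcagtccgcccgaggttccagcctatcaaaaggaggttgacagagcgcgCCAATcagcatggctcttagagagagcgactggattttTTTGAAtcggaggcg
Cdc25b: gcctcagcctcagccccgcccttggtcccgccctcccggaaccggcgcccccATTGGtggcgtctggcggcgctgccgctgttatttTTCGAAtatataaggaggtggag
Ncaph: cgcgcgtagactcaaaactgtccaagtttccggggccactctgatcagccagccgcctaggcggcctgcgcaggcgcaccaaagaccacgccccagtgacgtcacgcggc
On GRCm38 these stretches lie at chr10:69352883-69352992 (minus strand) for Cdk1, chr9:70421525-70421634 (minus strand) for Ccnb2, chr9:83834609-83834718 (plus strand) for Ttk, chr2:69206184-69206293 (minus strand) for Spc25, chr14:57826134-57826243 (minus strand) for Ska3, chrX:100625985-100626094 (plus strand) for Kif4, chr3:27153825-27153934 (minus strand) for Ect2, chr2:131186868-131186977 (plus strand) for Cdc25b and chr2:127133925-127134034 (minus strand) for Ncaph. Ncaph, a condensin subunit, had neither element in its stretch nor a CHR element in its full window, and 8 other members had no CHR element in theirs (Birc5, Ccnb1, Cenpe, Mad2l1, Nuf2, Nusap1, Pttg1 and Ska2). The shares say only how often these letters occur, not that a factor bound there.

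Libraries held 13089780 to 27838106 reads on genes, except no CHIR replicate 1 of wild type with 76071568. The 12 NPC markers, among them Six2, Cited1 and Eya1, were present throughout, 9 to 12 of them above 10 normalized counts in every library, while their summed count was 19967 to 27170 in wild-type low CHIR and 4770 to 9864 in high CHIR, where Osr1 was at 0 in all 3 libraries. The summed count of 11 stroma markers, such as Pdgfra and Col3a1, ran from 383 to 35223 over all libraries, so stromal transcripts were present in varying amounts. Counts of Ctnnb1 were 1040 to 1652 in the 4 Ctnnb1 sgRNA libraries and 2521 to 3397 in their GFP sgRNA controls. In the Cre arm they were 2254 to 3085 with Cre and 2207 to 3880 without, a gene-level count that also includes reads outside the deleted part and so checks the deletion poorly. Counts of Lef1 at high CHIR were 255 to 513 in QKO and 1144 to 2743 in its controls, and those of Tcf7 110 to 180 against 268 to 535. Those of Tcf7l1 (539 to 736 against 486 to 612) and Tcf7l2 (999 to 1616 against 1263 to 2233) overlapped. At low CHIR Lef1 counts overlapped too (21.5 and 87.1 against 19.9 to 120). Lef1 itself was called higher at high than at low CHIR in these controls (5.37), so its count checks the removal poorly. In wild type, high CHIR replicate 3 stood apart, with 11108 counts of Wnt4, an early nephron gene, against 1315 and 1473 in the other high CHIR libraries. Results of the high CHIR group are therefore given with and without it.

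Values are DESeq2-normalized counts, listed in replicate order, and differences are on the log2(normalized count + 1) scale with their standard error (SE), and gene positions are on GRCm38 from start to end of the gene. A gene was called when its Benjamini-Hochberg adjusted p from limma, fitted over all genes of a table, was under 0.05 and its difference at least 0.5. Per kilobase of exon, the members' level in wild-type low CHIR ran from 1858 counts for the cyclin Ccnb2 and 1676 for the kinase Plk1 down to 164 for the cytokinesis scaffold Anln and 61.3 for separase, Espl1. A few counts are uncertain: 13 members share exon bases with a gene on the opposite strand, including Ccna2 (with Exosc9), Cdc20 (Elovl1), Cdc25b (Spef1), Kif20a (Cdc23), Kif4 (Pdzd11), Prc1 (Rccd1) and Ska3 (Sap18), and the library kit does not mark strand.

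**Figure D1:**
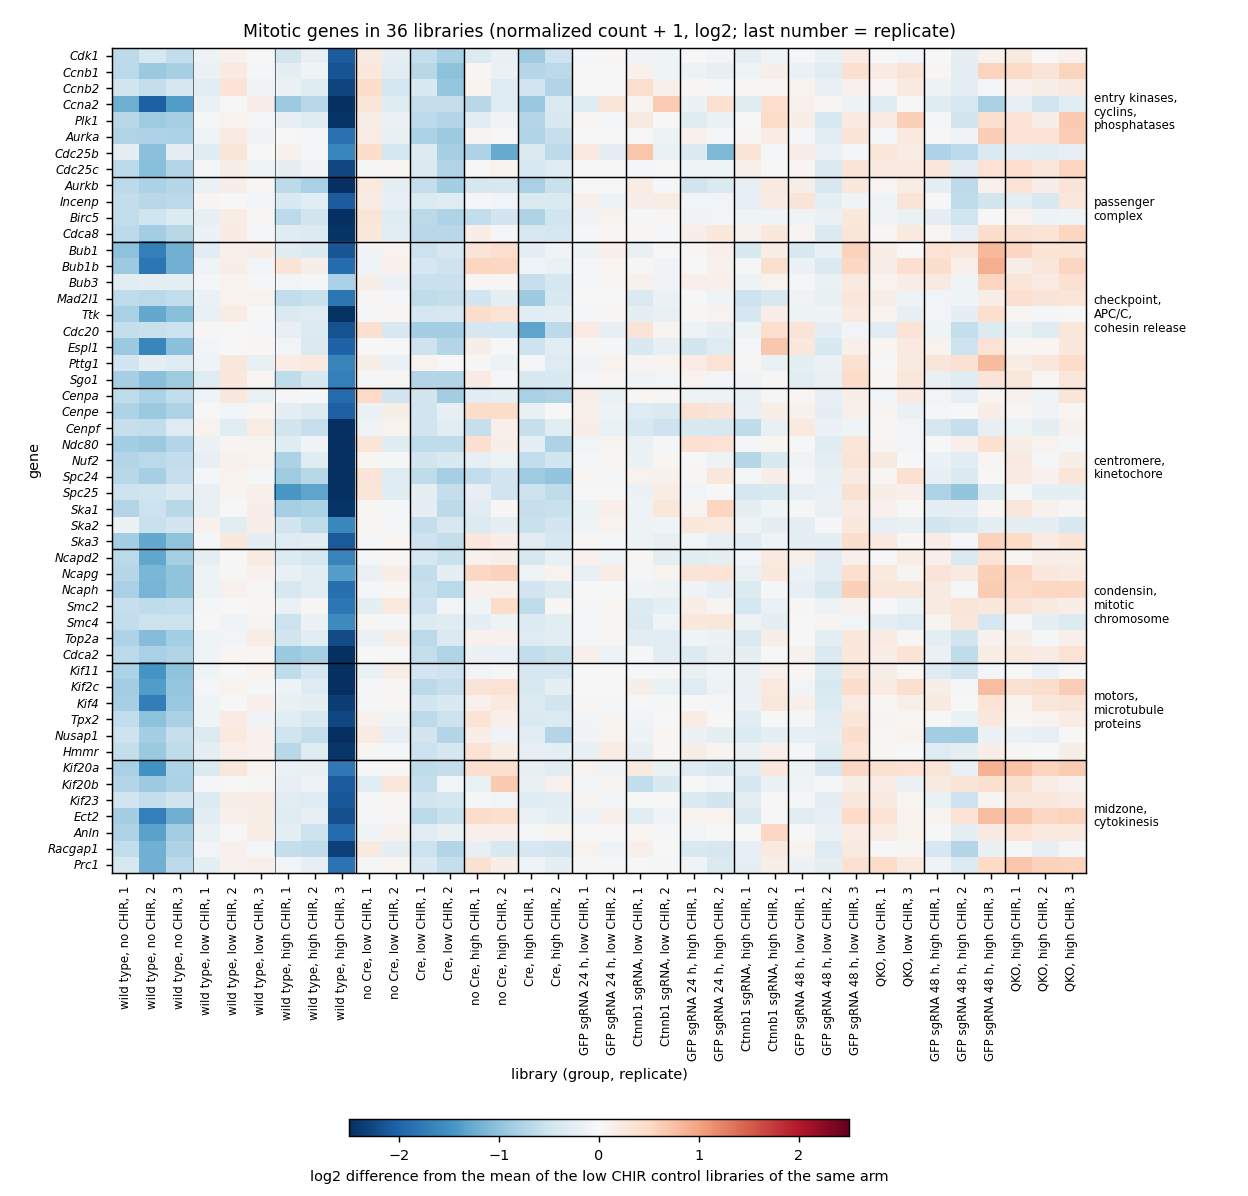
Each row is a member and each column a library, and colour shows the log2 difference from the mean of the low CHIR control libraries of the same arm, saturating at the ends of the scale. Rows are ordered by role, and the columns of wild type without CHIR, of wild-type high CHIR replicate 3 and of Cre lie below 0 across nearly all rows.

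In wild-type NPCs without CHIR, mitotic transcripts were below their low CHIR level in every role group, and no single member passed the test across all 9 libraries. All 51 members had a negative difference, with a median of -0.77 (range -1.55 to -0.25), while 48.8% of all 17411 genes tested were negative. For 49 members each of the 3 no CHIR libraries was below each low CHIR library, which held for 16.8% of all genes. None was called by limma, where 2.6% of all genes were called lower and 2.37% higher. At an unadjusted p under 0.05 there were 16 members, all lower (11.8% of all genes). The count tests called 0 members with edgeR and 9 with DESeq2.

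The largest differences were those of S and M phase cyclin A2 and the checkpoint kinases. Ccna2 had 862, 490.3 and 765 normalized counts without CHIR and 1804, 2014 and 2256 in low CHIR, a difference of -1.55 (SE 0.47, adjusted p = 0.0873). Bub1, a kinase that recruits checkpoint proteins to kinetochores, had 1031, 639.6 and 917 against 1719, 2301 and 2329 (-1.31, SE 0.42, adjusted p = 0.104). Its relative Bub1b, a part of the checkpoint complex that restrains Cdc20, had 1236, 666 and 1017 against 2169, 2619 and 2232 (-1.31, SE 0.50, adjusted p = 0.156). For these genes the highest library without CHIR lay well below the lowest one in low CHIR. The smallest differences were -0.25 for the checkpoint protein Bub3, -0.35 for securin, Pttg1, and -0.39 for the kinetochore protein Ska2.

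Among entry genes, Cdk1 (ENSMUSG00000019942, chr10:69335146-69352938, minus strand) had 3773, 4395 and 3873 counts without CHIR and 5431, 6403 and 5995 in low CHIR (-0.57, SE 0.38). Aurka (ENSMUSG00000027496, chr2:172356190-172370535, minus strand), the centrosomal Aurora kinase, had 1477, 1450.5 and 1441 against 2325, 2857 and 2328. Cdc25b (ENSMUSG00000027330, chr2:131186949-131198497, plus strand), a phosphatase that activates Cdk1, had 597, 337 and 589 against 569, 863 and 698, where 2 of the no CHIR libraries lay above the lowest low CHIR library. The passenger kinase Aurkb (ENSMUSG00000020897, chr11:69045647-69051664, plus strand) had 1912, 1727 and 1841 against 2678, 3314 and 3059. Among checkpoint genes, Mad2l1 (ENSMUSG00000029910, chr6:66535390-66547220, plus strand), which binds Cdc20, had 2013, 1948 and 2036 against 2779, 3283 and 3294. The kinase Ttk (ENSMUSG00000038379, chr9:83834689-83872389, plus strand), also called Mps1, had 602, 435 and 507 against 933, 1197 and 1062. All of these but Cdc25b had groups that did not overlap. Bub3 (ENSMUSG00000066979, chr7:131560222-131571895, plus strand) had 4440.3, 4464 and 4535 against 5133, 5644 and 5195. Sgo1 (ENSMUSG00000023940, chr17:53674786-53689333, minus strand), shugoshin, which protects centromeric cohesin, had 618, 533 and 593 against 899, 1323 and 1137 (-0.93, SE 0.29, adjusted p = 0.0996). Sgo1, Ska3, Ncaph and Ect2 are members that the study itself named from these samples, so their directions are not independent evidence.

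In the kinetochore group, Ndc80 (ENSMUSG00000024056, chr17:71496100-71526857, minus strand), the microtubule-binding subunit, had 733, 699.6 and 796 counts without CHIR against 1192, 1382 and 1381 in low CHIR. Spc25 (ENSMUSG00000005233, chr2:69193895-69206194, minus strand), which anchors the Ndc80 complex, had 2649.7, 2683 and 2965 against 3338, 3966 and 4163. Ska1, of the Ska complex that holds kinetochores on moving microtubule ends, had 409, 464 and 420.0 against 597, 682 and 763. Its partner Ska3 (ENSMUSG00000021965, chr14:57806561-57826185, minus strand) had 383, 287 and 345 against 681, 831 and 595 (-1.05, SE 0.41), the largest difference of the kinetochore group. Chromosome genes showed the same order of groups. Ncaph (ENSMUSG00000034906, chr2:127103809-127133954, minus strand) had 1583, 1235 and 1389.6 against 2544, 2984 and 2822. Top2a (ENSMUSG00000020914, chr11:98992943-99024189, minus strand), the topoisomerase that untangles sister chromatids, had 7472, 5981 and 7069.9 against 11803, 12149 and 14430.5. Cdca2 (ENSMUSG00000048922, chr14:67676331-67715841, minus strand), a phosphatase subunit of mitotic chromatin, had 1423, 1292 and 1348 against 2122, 2358 and 2369. In all 7 genes of this paragraph the groups did not overlap.

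Motor and cytokinesis genes followed. Kif11 (ENSMUSG00000012443, chr19:37376403-37421859, plus strand), the motor that pushes spindle poles apart, had 1118, 691 and 962 counts without CHIR against 1787, 1947 and 2043 in low CHIR. Kif2c (ENSMUSG00000028678, chr4:117159639-117182639, minus strand), which depolymerises microtubules at kinetochores, had 1641, 1148 and 1529 against 2894, 3199 and 2938. The chromokinesin Kif4 (ENSMUSG00000034311, chrX:100625737-100727214, plus strand) had 598, 322 and 555 against 987, 1065 and 1159, with the median of the 6 motor and microtubule members at -0.95. Tpx2 (ENSMUSG00000027469, chr2:152847964-152895321, plus strand), an activator of Aurora A, had 2655, 2014 and 2313 against 3788, 4677 and 3843. At the midzone, Kif20a had 1502, 919 and 1530.4 against 2034, 3187 and 2794. Ect2 (ENSMUSG00000027699, chr3:27097222-27153878, minus strand), the exchange factor that activates RhoA for the cleavage furrow, had 887, 486 and 678 against 1310.1, 1729.9 and 1779.7 (-1.26, SE 0.46). Anln (ENSMUSG00000036777, chr9:22332012-22389188, minus strand) had 861, 584 and 809.9 against 1321, 1466 and 1671. In each of these 7 genes every no CHIR library was below every low CHIR library.

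Whether the members without CHIR were called depended on the high CHIR libraries, which share the estimate of spread. In a fit of the 6 no and low CHIR libraries alone, 42 members were called lower (6.28% of all genes). In a fit without high CHIR replicate 3, chosen after seeing the data, 44 were called lower (6.88%). Sums of endothelium and blood markers stood higher without CHIR. The endothelium markers summed to 888 to 996 against 557 to 735 in low CHIR, and the blood markers to 1138 to 1495 against 863 to 1022. Of those tested, 3 of 7 endothelium and 2 of 7 blood markers were negative, and none was called by limma. Stroma sums overlapped (8864 to 35223 against 12053 to 20274), and 6 of 10 stroma markers tested were negative (median -0.22). The smooth muscle actin gene Acta2 was the only stroma marker called, and it was higher (2.15). The part of all these markers in the members' differences was not tested.

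High CHIR, the differentiating dose, also had members below low CHIR, and the size of the difference depended on 1 library. All 51 members had a negative difference from low CHIR, with a median of -0.91, against 49.2% of all genes, and 4 were called lower (5.05% of all genes were, with 5.33% called higher). The median over members of each library's difference from the low CHIR mean was -0.31 in high CHIR replicate 1, -0.31 in replicate 2 and -2.17 in replicate 3, against -0.68, -0.91 and -0.73 without CHIR. Without replicate 3 the median was -0.33, 48 members were below low CHIR and 3 above, and 9 were called lower (6.64%): Ccna2, Aurkb, Birc5, Mad2l1, Spc24, Spc25, Ska1, Cdca2 and Racgap1. For 36 members all 3 high CHIR libraries were below all low CHIR libraries (16% of all genes).

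**Figure D2:**
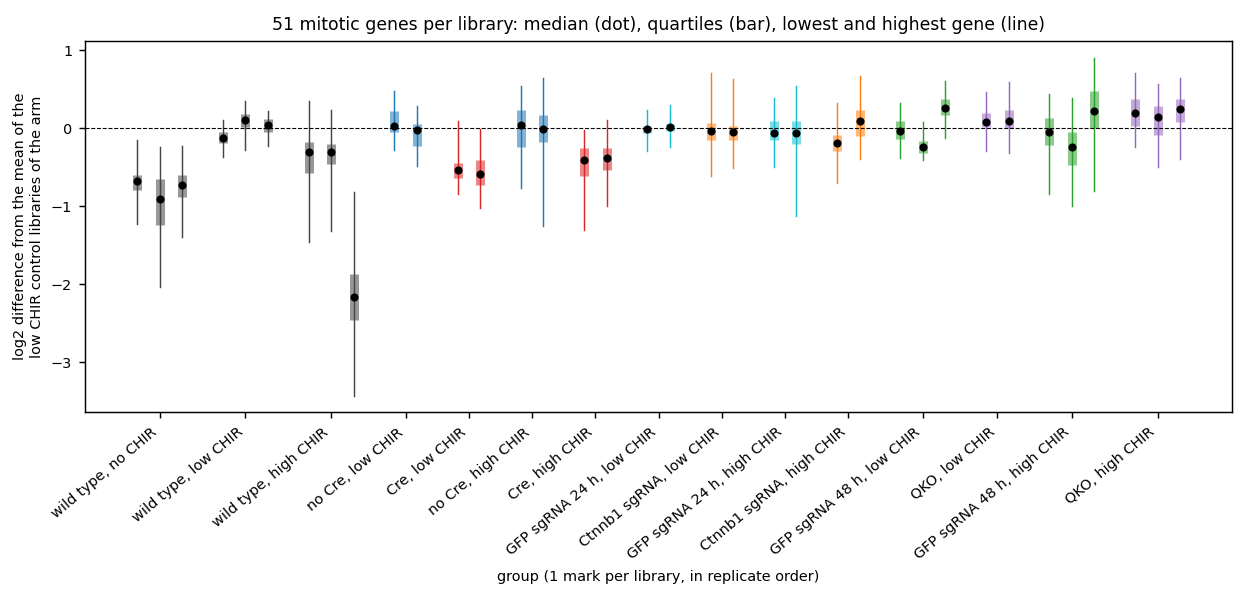
For each library the spread of the 51 members' log2 difference from the low CHIR control mean of the same arm is drawn, with the median as a dot, the quartiles as a bar and the extremes as a line. Wild-type high CHIR replicate 3 lies lowest with a median of -2.17, the Cre libraries lie below their controls, and the Ctnnb1 sgRNA and QKO libraries lie near theirs.

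The 4 members called over all libraries were Spc25, Cdca2, Ska1 and Mad2l1. Spc25 had 1387, 1529.8 and 563 counts in high CHIR and fell by 1.84 on the log2 scale from low CHIR (SE 0.31, adjusted p = 0.00427), and its high CHIR libraries were below every no CHIR library as well. Cdca2 had 1200.0, 1281 and 406 and fell by 1.41 (SE 0.35, adjusted p = 0.0298). Ska1 had 382, 392 and 122 and fell by 1.36 (SE 0.38, adjusted p = 0.0457). Mad2l1 had 2038, 2102 and 885 and fell by 0.99 (SE 0.28, adjusted p = 0.0482). For these 4 genes replicates 1 and 2 alone were below low CHIR too. Spc25 was called whichever library was left out, with an adjusted p of 0.0248 at most over all alternatives, while those of Cdca2, Ska1 and Mad2l1 reached 0.105, 0.159 and 0.156. When any 1 low CHIR library was left out Spc25 was the only member called, and without high CHIR replicate 1 or 2 the members called were 6 or 11.

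Other members split replicate 3 from its group. Bub1b had 2955, 2586 and 616 counts in high CHIR, so replicates 1 and 2 were within or above the low CHIR range while replicate 3 was below every other wild-type library (-0.48, SE 0.50). Aurka had 2497, 2425 and 686 and Cdc25b 757, 684 and 224. Bub3 had 5067, 5237 and 3019.9, the smallest difference of the group (-0.30). In these genes replicates 1 and 2 lay within or near the low CHIR range. Intermediate values were found for Cdk1 (4307, 5126 and 1410.4), Ttk (820.1, 849 and 191), Sgo1 (707, 809.6 and 336) and Ndc80 (1061, 1231 and 228). Likewise Ska3 had 557, 574 and 162, Ncaph 2102, 2267 and 751 and Top2a 9256, 10495 and 2692. Aurkb had 1902, 1721 and 401, where all 3 libraries were low (-1.46, SE 0.47, adjusted p = 0.078). Among motors, Kif11 had 1230.2, 1435 and 327, Kif2c 2748, 2389.7 and 497, Kif4 937, 914 and 207 and Tpx2 3421, 3079 and 838. At the midzone, Kif20a had 2356, 2296 and 759, Ect2 1297, 1376 and 348 and Anln 1243, 1012 and 388. Replicate 3 was the lowest wild-type library for all 23 genes described library by library, a set chosen partly by calls. The members' low values in this library came with Foxm1 at 94.4 counts, a transcription factor of mitotic genes, against 295 and 324 in the other high CHIR libraries, and with the shift of Wnt4 given earlier, whose part in the result was not tested. Over all 3 high CHIR libraries the ureteric epithelium markers (9 of 11 had values) summed to 3726 to 8488 against 1151 to 1757 in low CHIR. Hoxb7 (1.22), Gata3 (5.39) and Krt18 (1.95) were called higher. The blood markers (12 of 15 had values) summed to 301 to 443 against 863 to 1022, with the myeloid gene Lyz2 called lower (-1.59). Of 10 stroma markers tested 9 were negative, with Foxd1 called lower (-1.95). Among endothelium markers Tek was called higher (6.95), and Plvap (-3.80) and Cldn5 (-4.34) were called lower. The part of these markers in the members' differences was not tested.

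Set directly against no CHIR, high CHIR gave opposite pictures with and without replicate 3. Over all 3 libraries 33 members were negative, the median was -0.06, and only Spc25 was called (fell by 1.38, SE 0.31, adjusted p = 0.00982), where 12.0% of all genes were called lower and 11.4% higher. With replicates 1 and 2 alone, 43 members were above no CHIR with a median of 0.54, 25 were called higher (12.5% of all genes) and Spc25 was again called lower (13.3%). Bub1b had the largest difference of these, 1.55. The low CHIR group thus held the highest median, and high CHIR replicates 1 and 2 a higher one than no CHIR.

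After Cre removal of β-catenin, mitotic transcripts were below their controls at both CHIR doses. At low CHIR 50 of 51 members were negative, with a median of -0.56 (range -0.86 to 0.04), while 50.8% of all 16780 genes were. In 44 members both Cre libraries were below both controls (18.2% of all genes). Only Aurka was called, where 0.149% of all genes were called lower and 0.179% higher, although 40 members had an unadjusted p under 0.05 (5.83% of all genes). Aurka had 1469.6 and 1356 counts with Cre and 2899.5 and 2215 without and fell by 0.84 (SE 0.16, adjusted p = 0.0405). This call was kept without no-Cre replicate 2 and lost without each of the other 3 libraries (adjusted p = 0.171 to 0.385). Without no-Cre replicate 2, 9 members were called.

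Cyclin B1 and Cdc20 had the largest differences beside Aurka at low CHIR. Ccnb1 had 4551 and 3602 counts with Cre against 8789.6 and 6125 (-0.86, SE 0.19, adjusted p = 0.0939). Cdc20, the activator of the anaphase-promoting complex, had 886 and 883 against 2096 and 1209.6 (-0.85, SE 0.28). Sgo1 had 838 and 834 against 1357 and 1425 (-0.73, SE 0.14, adjusted p = 0.053). In these genes both Cre libraries were below both controls. Pttg1 was the exception, with 847 and 793 against 888 and 716.

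At high CHIR, too, nearly all members were below their controls after Cre. With 50 of 51 negative and a median of -0.46, 12 members fell (2.75% of all genes were called lower and 5.9% higher), and in 43 members both Cre libraries were below both controls (23.1% of all genes). These 12 cover most roles: Aurka among entry genes, Bub1b, Bub3 and Ttk of the checkpoint, Ndc80 and Ska3 of the kinetochore, Ncaph of condensin, Kif2c, Kif4 and Tpx2 of the spindle, and Kif20a and Ect2 of the midzone. No passenger complex gene was called.

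Ndc80 had 1208 and 844 counts with Cre and 1922 and 1592 without and fell by 0.79 (SE 0.21, adjusted p = 0.0307). Aurka had 1515 and 1689 against 2667 and 2515 and fell by 0.69 (SE 0.16, adjusted p = 0.0134). Bub1b had 2078 and 1972 against 3222 and 3165 and fell by 0.66 (SE 0.16, adjusted p = 0.0194). The Cre libraries of these 3 genes were all below the lowest control. Kif2c had 1631 and 1838 against 2688 and 2764 and fell by 0.65 (adjusted p = 0.0242). Kif20a had 2113 and 2027 against 3226 and 3219 and fell by 0.64 (adjusted p = 0.0444). Ect2 had 1283 and 1230.0 against 1977 and 1903 and fell by 0.63 (adjusted p = 0.0258). For each of these genes the replicates of a group differed by less than the groups did. Ttk had 811 and 831 against 1316 and 1230.4 and fell by 0.63 (adjusted p = 0.04). Tpx2 had 2569.6 and 2579 against 4184 and 3597 and fell by 0.59 (adjusted p = 0.0299). Kif4 had 636 and 582 against 871 and 955 and fell by 0.58 (adjusted p = 0.0458).

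The remaining called members lay closer to the minimum difference. Ska3 had 667 and 597 counts with Cre against 959 and 891 and fell by 0.55 (adjusted p = 0.0373). Bub3 had 4549 and 5122 against 7016 and 6962 and fell by 0.53 (adjusted p = 0.0447). Ncaph had 1688 and 1839.6 against 2541 and 2523 and fell by 0.52 (adjusted p = 0.0361). The 11 members called here beside Aurka were also negative at low CHIR, from -0.64 for Ndc80 to -0.42 for Ttk, without passing the test there. A test of the difference between doses (Cre removal at high minus low CHIR) called none of the 51 with limma (0.25% of all genes were called lower and 0.745% higher), and Cdc25b had the largest value, 1.09.

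How firmly these 12 were called depended on single libraries, since each group held 2. Leaving out either control library left 0 calls, and leaving out Cre replicate 1 left Ndc80 and Cre replicate 2 left Aurka. Of the members not called, Cdc25b went the other way, with 675 and 552 counts with Cre against 510.0 and 365 (0.50, SE 0.36, adjusted p = 0.488), the only member with both Cre libraries above both controls (24.2% of all genes). Values for the other genes followed the group without passing the test: Cdk1 had 3218 and 4168 against 4718 and 5211, Sgo1 1055 and 1062 against 1603 and 1345, and Top2a 7589.8 and 7965 against 10284 and 10281. Smaller differences were those of Aurkb (1690.2 and 2008 against 2179.8 and 2239), Kif11 (1337 and 1342 against 1706 and 1749) and Anln (1153 and 1275 against 1305 and 1303).

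Some marker sums of other cells were higher with Cre, and some after Cas9 removal too. The summed count of the 11 stroma markers was 14044 to 20097 with Cre and 5519 to 13256 without at low CHIR, and 10042 to 17042 against 5547 to 7335 at high CHIR, with 0 of them called. Of the 15 blood markers 8 had values in these libraries, and the globins Hbb-bt and Hbb-bs had none. The blood markers with values summed to 214 to 568 with Cre and 81.1 to 214 without at low CHIR, where the groups overlapped. At high CHIR their sum was 108 to 210.1 against 69.0 to 75.7, and Fcer1g was called higher (4.80). The endothelium markers summed to 1128 to 1586 with Cre and 734 to 1600.2 without at low CHIR, where the groups overlapped. At high CHIR they summed to 741 to 842 against 259 to 293, and the vessel genes Plvap (2.51) and Cldn5 (3.08) were called higher. Only 3 of 10 endothelium and 4 of 15 blood markers had enough counts to be tested there. Of these, 0 and 1 were negative. The endothelium marker Pecam1 had low counts, 3.03 and 7.29 with Cre against 10.13 and 5.19 without. After Cas9 removal at high CHIR, where the members' median was -0.02, Plvap and Cldn5 were called higher too (2.48 and 4.17). The endothelium markers there summed to 1032 to 1053 with Ctnnb1 sgRNA and 389 to 426 with GFP sgRNA. Blood markers summed to 76.6 to 96.7 against 50.7 to 59.2, and the stroma sums overlapped (14007 to 24478 against 5681 to 20977). The part of these markers in the members' differences was not tested. Fewer dividing cells in the libraries cannot be told apart from less mitotic transcript in each cell.

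**Figure D3:**
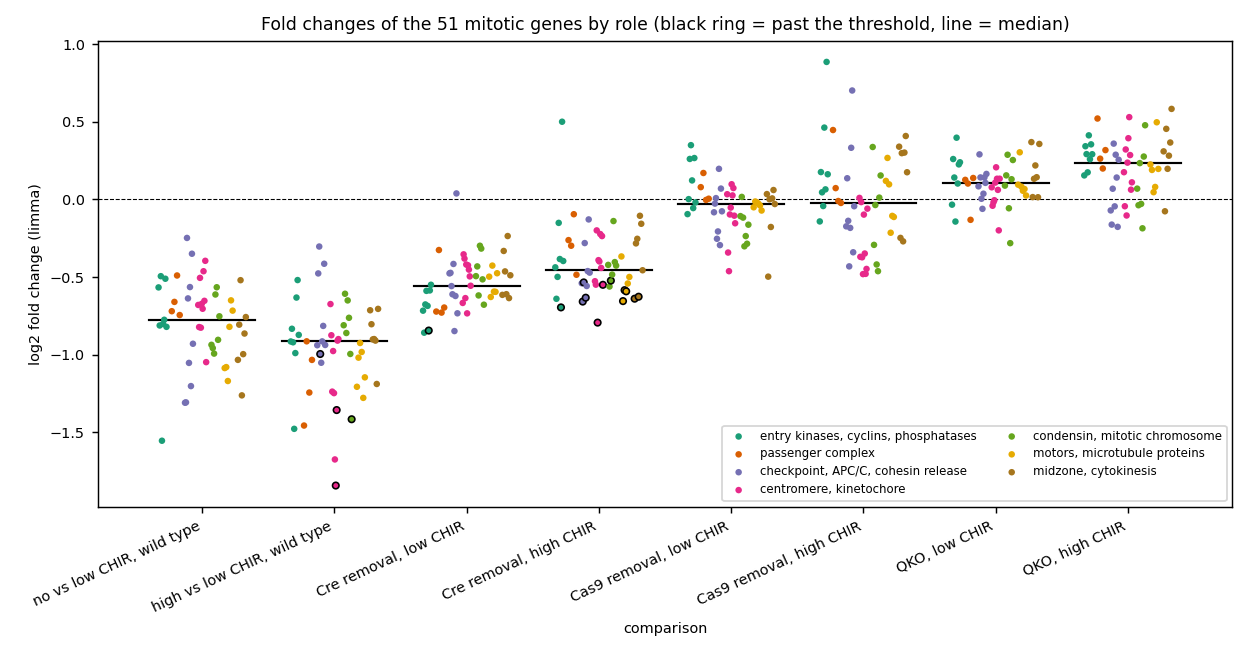
The log2 difference of each of the 51 members is plotted for each comparison, grouped by role, with called members ringed in black and a line at each median. Cre removal lies below 0 in all role groups at both doses, except Pttg1 just above 0 at low CHIR and Cdc25b above 0 at high CHIR. Cas9 removal scatters around 0, with most kinetochore members below it at high CHIR, and QKO lies around or slightly above 0.

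After removal of β-catenin with Cas9 the members were spread around 0. At low CHIR 31 of 51 members were negative with a median of -0.03, and 0 were called by limma (0.0179% of all genes were called lower and 0.0358% higher), with 0 at an unadjusted p under 0.05. At high CHIR 28 were negative with a median of -0.02, and 0 were called by limma, edgeR and DESeq2 (by limma, 1.64% of all genes were called lower and 3.44% higher), with 4 lower and 5 higher at an unadjusted p under 0.05. In 16 members both Ctnnb1 sgRNA libraries were below both controls at high CHIR and in 12 both were above, against 31.2% and 30.1% of all genes. At low CHIR these counts were 16 below and 3 above, against 14% and 16.1% of all genes.

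The genes called after Cre had these values in the Cas9 arm. Aurka had 2017 and 2247 counts with Ctnnb1 sgRNA at high CHIR against 2136 and 1939 with GFP sgRNA, and 1992 and 1804 against 1966 and 1974 at low CHIR. Bub1b had 1811 and 2424 against 1837 and 1978 at high CHIR, and Kif2c 1839.9 and 2408 against 1636 and 1869. In these genes the groups overlapped or the Ctnnb1 sgRNA libraries reached above the controls. Ndc80 had 1105 and 1195 against 1500.2 and 1476 at high CHIR (-0.37, SE 0.21, adjusted p = 0.358). Ect2 had 983 and 1275 against 1349 and 1349.7, and Ttk 694 and 1037 against 940.4 and 987. Among the other genes of the 12, Bub3 had 4585 and 5321 against 5449 and 5418, Kif20a 2029 and 2952 against 1974 and 1894, and Ska3 632 and 705 against 732 and 660.5. Of these 9 genes Ndc80, Ect2 and Bub3 had both Ctnnb1 sgRNA libraries below both controls, and Kif20a had both above. Ncaph had 1759.8 and 2185 against 2087 and 1936, Tpx2 2471 and 3027 against 3395 and 2965 and Kif4 597 and 801 against 651 and 641, with groups that overlapped. By role, 9 of 10 kinetochore members were negative at high CHIR (median -0.36, with Nuf2 at -0.48 and Ska1 at -0.48), while 5 of 7 midzone members were positive (median 0.30).

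The largest values in the Cas9 arm at high CHIR were positive. Cdc25b had 944 and 729 counts with Ctnnb1 sgRNA against 584 and 345 (0.89, SE 0.36, adjusted p = 0.195). Espl1, the protease that cleaves cohesin, had 368 and 604 against 277 and 303 (0.70, SE 0.22, adjusted p = 0.0942). The lowest adjusted p was 0.072, that of the condensin ATPase Smc4, with 2764 and 2575 against 3645 and 3704 (-0.46, SE 0.14). None of these passed the test with all libraries. Espl1 was called without Ctnnb1 sgRNA replicate 1, and Cdc25b was called higher by limma with the replicate block (adjusted p = 0.00833).

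Tested directly, the difference between the Cre and Cas9 effects passed the threshold for no single member. Their difference (Cre minus Cas9) was negative for 48 members at low CHIR (median -0.50) and for 44 at high CHIR (median -0.42), against 52.4% and 49.6% of all genes. At an unadjusted p under 0.05 there were 20 members lower at low CHIR (1.53% of all genes) and 19 at high CHIR (1.46%), but limma called 0 at either dose, and 0.0% of all genes were called in either direction. The lowest adjusted p of a member was 0.999 at low and 0.774 at high CHIR. Relative to its own controls, the median over members was -0.54 and -0.59 in the Cre libraries and -0.04 and -0.04 in the Ctnnb1 sgRNA libraries at low CHIR, and -0.47 and -0.40 against -0.14 and 0.09 at high CHIR.

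Levels also differed between the controls of the 2 ways of removal. Cells without Cre had higher member values than cells with GFP sgRNA, with a median difference of 0.31 at low CHIR (3 of 51 negative) and 0.38 at high CHIR (6 negative). Between Cre and Ctnnb1 sgRNA cells the median difference was -0.17 at low and -0.05 at high CHIR. Between Cre cells and the GFP sgRNA controls it was -0.25 at low CHIR (44 negative) and -0.01 at high CHIR (27 negative). Genotype, agent and transfection differ together between these arms, so their parts cannot be told apart.

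**Figure D4:**
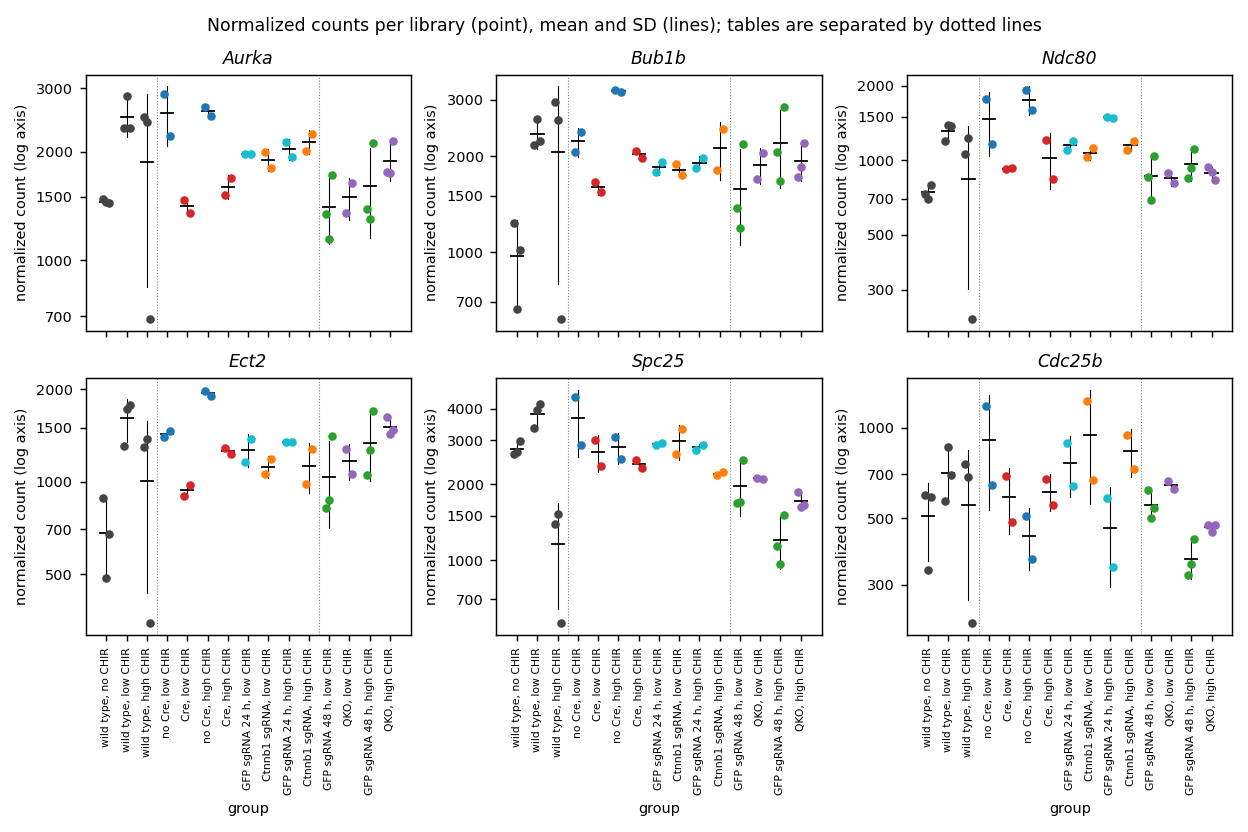
Normalized counts of Aurka, Bub1b, Ndc80, Ect2, Spc25 and Cdc25b are shown on a log axis for every library by group, with lines at each group's mean and SD. The Cre libraries of Aurka, Bub1b, Ndc80 and Ect2 lie below their controls, the high CHIR libraries of Spc25 are the lowest in wild type, and Cdc25b is lower at high than at low CHIR in the 3 transfection controls.

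In controls of the transfected cells, the dose of CHIR left the members spread around 0. High against low CHIR had a median of 0.03 in cells without Cre (24 of 51 negative), -0.04 with GFP sgRNA for 24 h (31 negative) and -0.02 with GFP sgRNA for 48 h (27 negative). Limma called 0 members in the first (5.24% of all genes were called lower and 2.8% higher), with 3 lower and 6 higher at an unadjusted p under 0.05, while edgeR called 0, DESeq2 called Cdc25b alone and limma called 4 without low CHIR replicate 2. It called 0 in the second (4.53% and 2.98%), with 3 lower at an unadjusted p under 0.05. In the third, Cdc25b and Spc25 were called lower (7.96% of all genes were, with 6.98% called higher). The study states that all its cultures were seeded in low CHIR. These controls had 24 or 48 h more in low CHIR after transfection and, unlike wild type, had been transfected and sorted.

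These 2 calls were a smaller share of the members than of all genes, and Nusap1, not called, had a difference of similar size there (-0.62). Without Cre, Birc5 (-0.54) and Spc24 (-0.54) had larger differences than Spc25. At high CHIR with GFP sgRNA for 48 h, Cdc25b had 323, 351 and 427 counts against 619, 500.4 and 542 at low CHIR and fell by 0.60 (SE 0.15, adjusted p = 0.0171). Without Cre it had 510.0 and 365 against 1178 and 644 (-1.01, adjusted p = 0.115), and with GFP sgRNA for 24 h 584 and 345 against 888 and 639.6 (-0.75, adjusted p = 0.263). In wild type its high CHIR replicates 1 and 2 were within the low CHIR range. Spc25 had 1133, 968 and 1512 against 1682, 1706 and 2496 and fell by 0.70 (SE 0.19, adjusted p = 0.0237), in the direction of its wild-type fall. The test of dose in the other controls gave -0.35 without Cre and -0.05 with GFP sgRNA for 24 h, neither called. Both calls at 48 h were lost when high CHIR replicate 1 or 2 was left out, and without low CHIR replicate 3 the members called were 8, 6 of them higher, and without high CHIR replicate 3 they were 4. Adjusted p over all alternatives ran from 0.00914 to 0.0765 for Cdc25b and from 0.00483 to 0.1 for Spc25.

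After removal of the 4 Tcf/Lef factors most members were above their controls at high CHIR. None was called at either dose in the main fit, which did not use the pairing of replicate numbers. With the replicate block, which used it, Aurkb and Spc25 were called higher at high CHIR. At low CHIR 10 of 51 were negative with a median of 0.11, but 23 were with the replicate block (median 0.01) and 29 without control replicate 2 (median -0.02). Of all genes there 44.5% were negative, and limma, edgeR and DESeq2 called 0, with 0 at an unadjusted p under 0.05 (by limma, 0.0% of all genes were called lower and 0.0063% higher). At high CHIR 10 were again negative with a median of 0.23, against 49.9% of all genes. Limma called 0 there (0.491% of all genes lower and 2.05% higher), although 11 members were higher at an unadjusted p under 0.05 (8.67% of all genes). In 10 members all QKO libraries were above all controls at high CHIR (11.1% of all genes were), namely Ccnb2, Cdc25b, Aurkb, Mad2l1, Spc24, Spc25, Cdca2, Kif23, Anln and Prc1.

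Spc25 had 1862, 1620.4 and 1655 counts in QKO at high CHIR and 1133, 968 and 1512 in controls (0.53, SE 0.19, adjusted p = 0.196). Prc1, which bundles midzone microtubules, had 2610.1, 2385 and 2381 against 1521, 1272 and 2276 (0.58, SE 0.21, adjusted p = 0.211), and was called when control replicate 3 was left out. Aurkb had 2067, 1793 and 2026 against 1391, 1037 and 1761 (0.52, SE 0.21, adjusted p = 0.26). In all 3 genes the lowest QKO library was above the highest control. With the replicate number as a block, Aurkb and Spc25 were called higher (5.3% of all genes were), since the replicate numbers pair these libraries. Cdc25b had 474, 451 and 475 against 323, 351 and 427, Mad2l1 2165, 2043 and 2032 against 1554, 1515 and 1808, and Cdca2 1549, 1511 and 1684 against 1162, 839 and 1496.

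Members called after Cre at high CHIR overlapped between QKO and controls. Aurka had 1753, 1751 and 2137 counts in QKO against 1388, 1299.5 and 2122 at high CHIR. Bub1b had 1716, 1848 and 2205 against 2060.3, 1666 and 2853 (-0.16, SE 0.24), a difference that turned to 0.05 without control replicate 3. Ndc80 had 939, 898 and 835 against 846, 928 and 1111, and Ect2 1619, 1432 and 1469 against 1049, 1266 and 1702. The spread between controls was wide in these genes, replicate 3 being the highest of the 3 in each. Kif20a had 2573, 2309 and 2459.6 against 1933, 1385 and 2864, Ncaph 2303, 2372 and 2382 against 1928, 1606 and 2584, Ttk 761, 728 and 738 against 709.6, 631 and 1002 and Ska3 713, 585 and 641 against 577, 488 and 754. The stroma marker sum was 865 to 10940 in QKO and 383 to 4997 in controls at high CHIR. Blood markers there summed to 40.5 to 114 in QKO and 60.6 to 3498 in controls, the highest being control replicate 1. Of 7 blood markers tested 6 were negative (median -2.35), and 0 were called. Plvap (2.14) and Cldn5 (2.94) were called higher there as well, while 2 of the 6 endothelium markers tested were negative. The part of these markers in the members' values was not tested.

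Other cell cycle genes put the members in context. A list of 75 further mitotic genes, such as Pbk, Cenph and Ckap2, was set beside the members: 74 were negative without CHIR (median -0.68, 1 called), 74 at high against low CHIR (median -0.85, 3 called lower), 74 after Cre at low CHIR (median -0.49, 1 called) and 69 after Cre at high CHIR (median -0.40, 11 called lower). After Cas9 removal at high CHIR 43 were negative (median -0.06), and 3 kinetochore genes, Cenph, Cenpk and Cenpq, were called lower. In QKO at high CHIR Ckap2 (0.80) and Psrc1 (1.5) were called higher.

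A list of 53 DNA replication genes, which act in S phase, was set beside the members too, and no difference between the lists was tested. Of these, 52 were negative without CHIR (median -0.61, 9 called lower) and 52 at high against low CHIR (median -0.68, 19 called lower). After Cre, 52 were negative at low CHIR (median -0.39, 0 called by limma) and 40 at high CHIR (median -0.21, 2 called lower). The medians over all genes tested were 0.0109, 0.00937, -0.00682 and -0.0155 in the same 4 comparisons. In the Cas9 arm at high CHIR 41 were negative (median -0.19), and the ribonucleotide reductase subunit Rrm2 was called lower.

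The wild-type counts of both lists include high CHIR replicate 3. In the fit without it, 47 of the 75 further mitotic genes and 34 of the 53 replication genes were called lower without CHIR, beside 44 of the 51 members. At high against low CHIR that fit had 65 of the further mitotic genes negative (median -0.30, 10 called lower) and 48 of the replication genes (median -0.43, 18 called lower), beside 48 members (median -0.33, 9 called lower).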

How the data were processed

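Bulk RNA from 36 libraries of primary mouse NPCs was sequenced by the authors as 150-base paired reads from SMARTer Ultra Low libraries, a kit that does not mark strand. As the study's methods state, STAR aligned the reads to a joint reference of the mouse (GRCm38) and human (GRCh38) Ensembl assemblies, and featureCounts counted uniquely aligned, unambiguous reads per gene. The signal in the 3 deposited tables is the normalized count per gene that the authors made with DESeq2 size factors, separately for each table, so tests were made within a table. Another 8 deposited comparison tables hold the authors' fold changes and p-values and were not used, nor were their 50 columns of per-sample values.

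Gene IDs were matched to GENCODE symbols and positions on GRCm38. Genes averaging 10 or more normalized counts over a table's libraries were tested with limma (3.58.1, trend, R 4.3.3) on log2(normalized count + 1), with all libraries of a table in 1 fit and Benjamini-Hochberg adjustment over all genes. A call needed an adjusted p under 0.05 and a log2 difference of at least 0.5. Whole reads were recovered from the steps of the values (100% of values were whole within 0.01 read), and edgeR (4.0.16) and DESeq2 (1.42.0) were run on them for comparisons that did not touch 3 libraries whose steps were not used. The scripts were tested on simulated data.

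Members and lists were chosen with earlier results of these data known. Genes described library by library were a set of 23, joined by the 3 members with the largest positive and negative differences of a comparison. The 23 were members called in any comparison, Ska3, Ncaph, Sgo1 and Ect2, which the study names, and a lead gene fixed for each role. Many of them were thus chosen by the tests reported here. Nothing in the labels says that replicates came from separate cultures or animals, so p-values measure only the spread between these libraries. In the Tcf/Lef table the replicate numbers pair the libraries, since the deviations of same-numbered libraries from their group means correlated at 0.25 to 0.63 in every pair of groups. The main fit did not use this pairing, and the replicate block did. Depth was 13089780 to 76071568 reads on genes, and groups held 2 or 3 libraries. Promoter windows came from RefSeq for GRCm38.p6. Alternatives were another pseudocount, no filter on low values, only the groups compared, TMM rescaling, the replicate block, no minimum difference, leaving out each library, edgeR and DESeq2. A fit of wild type without high CHIR replicate 3 was added after seeing the data.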

Additional observations from a re-analysis of the deposited data

How the results depend on the processing

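Counts of members called that moved by over 1.5 times were as follows, and their cause was not tested. With only the groups compared in the fit, 42 were called without CHIR in wild type, 1 at high against low CHIR, 0 after Cre at low CHIR, 0 after Cre at high CHIR and 0 for the dose with GFP sgRNA for 48 h. The fit of wild type without high CHIR replicate 3, chosen after seeing the data, called 44 without CHIR. DESeq2 called 9 without CHIR, 9 at high against low CHIR, 8 after Cre at low CHIR and 1 for the dose without Cre, where edgeR called 0, 2, 0 and 0. With no filter on low values, 0 were called after Cre at low CHIR and 5 after Cre at high CHIR. With the replicate block, 3 were called after Cre at low CHIR, 1 after Cas9 removal at high CHIR, 3 for the dose without Cre, 1 for the dose with GFP sgRNA for 24 h, 1 for Cre removal at high minus low CHIR and 2 for QKO at high CHIR. These were Ccnb1, Aurka and Sgo1 (lower) after Cre at low CHIR, Cdc25b (higher) after Cas9 removal, Cdc25b (lower), Bub1b and Ncapg (higher) for the dose without Cre, Cdc25b (lower) for the dose with GFP sgRNA for 24 h, Cdc25b (higher) for Cre removal at high minus low CHIR, and Aurkb and Spc25 (higher) in QKO. The block changed no other count by that much. In the wild-type and β-catenin tables the labels do not say that replicate numbers pair libraries. There the deviations of same-numbered libraries correlated at -0.02 to 0.27 in wild type and at 0.20 to 0.49 in the other. With 2 libraries a group, both pairs of a comparison in the β-catenin table give the same value by construction.

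Leaving out each library in turn gave 1 to 11 members called at high against low CHIR in wild type, 1 to 26 at high against no CHIR, 0 to 9 after Cre at low CHIR, 0 to 1 after Cre at high CHIR, 0 to 1 after Cas9 removal at high CHIR, 0 to 4 for the dose without Cre, 0 to 8 for the dose with GFP sgRNA for 48 h and 0 to 1 for QKO at high CHIR. For the other comparisons of those 17 it gave 0 whichever library of the groups compared was left out. Of 1315 values of single members under alternatives (104 results), 1161 kept their direction and side of the threshold, 97 lost and 39 gained a call, and 18 changed sign, each by leaving out a library. Over the libraries left out, these ran from -0.12 to 0.19 for Pttg1 after Cre at low CHIR, from -0.17 to 0.70 for Cdc25b after Cas9 removal at low CHIR, and for Cre minus Cas9 removal at low CHIR from -0.092 to 0.25 for Cenpf, from -0.12 to 0.45 for Kif20b and from -0.24 to 0.24 for Smc2. They ran from -0.52 to 0.15 for Smc2 in Cre removal at high minus low CHIR, from -0.30 to 0.014 for Ccna2 in QKO at low CHIR and from -0.34 to 0.046 for Bub1b in QKO at high CHIR. None of these had been called. Count tests were not run for comparisons that hold GFP sgRNA for 24 h at low CHIR, Cre at high CHIR or GFP sgRNA for 48 h at high CHIR.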

Other observations

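Some regulators of the cell cycle outside the members' list were called, also in comparisons where the members' median lay near 0. Among 20 genes that control mitotic transcription, Mycn, a growth-promoting transcription factor, was called lower in wild type without CHIR (-1.82) and at high against low CHIR (-2.05), after Cre at low CHIR (-2.05) and high CHIR (-2.05), and after Cas9 removal at high CHIR (-1.15). In none of the transfection controls was Mycn called at high against low CHIR. Mybl2, which activates late cell cycle promoters, was called lower without CHIR (-1.41) and at high CHIR (-1.17). Myc, a relative of Mycn, went the other way: it was called higher without CHIR (1.05) and at high CHIR after Cre (1.43) and Cas9 removal (1.28). In the no-Cre controls Myc was called lower at high against low CHIR (-1.26). Among 15 brakes on mitotic entry, the stress protein gene Gadd45g was called higher at high against low CHIR in wild type (2.77), without Cre (3.68) and with GFP sgRNA for 24 h (4.32) and 48 h (3.32), and was called lower after Cre (-1.71) and Cas9 removal (-1.90) at high CHIR. Of the same list, Gadd45b was called higher without CHIR (1.77), at high against low CHIR in wild type (1.56) and after Cre at high CHIR (1.77), and Ccng2, a cyclin of resting cells, was called lower without CHIR (-0.88) and after Cre at high CHIR (-0.83). All are log2 differences from limma, with calls as in the text above, and the wild-type high CHIR values include replicate 3, without which Mybl2 was no longer called at high CHIR.

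A list of 16 p53 target genes was above its controls in QKO, where the members were slightly above theirs. At high CHIR all 16 had a positive difference (median 0.96), and 8 were called higher, among them the death receptor Fas (2.77), Cdkn1a (1.82), which inhibits cyclin-dependent kinases, and Ccng1 (1.40), with 2.05% of all genes called higher. At low CHIR all 16 were again positive (median 0.50), with 0 called by limma. In the matching GFP sgRNA controls, 15 of the 16 were lower at high than at low CHIR (median -0.68), and 6 were called lower. The QKO cells received guides to 4 genes and the controls a guide to GFP, so the number of cut sites and the loss of the factors cannot be told apart.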
